A study of Homo sapiens with 16 samples.

Results

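Messenger RNA of 10 immunomodulatory factors of mesenchymal stem cells (MSCs) was followed in young and senescent cells with and without growth differentiation factor 11 (GDF11). The members were named by symbol and matched to the gene identifiers of the count table through the GENCODE annotation: IDO1, TNFAIP6, CD274, PDCD1LG2, LGALS1, LGALS3, STC1, ICAM1, VCAM1 and CD200, which are 10 of the 60649 genes in the table. The cells were the wild-type line ASC52telo, adipose-derived MSCs immortalized with telomerase, so all 4 groups come from 1 line and carry the same immortalization. MmC-/GDF11- cells received neither agent and are called young. MmC+/GDF11- cells were exposed to mitomycin C (MmC), a DNA alkylating agent, at 1.5 µg/mL for 18 h to make them senescent. MmC-/GDF11+ and MmC+/GDF11+ cells were the same populations with recombinant GDF11 protein at 10 ng/mL over the 10 days that followed. Each group had 4 biological replicates, and poly(A)-enriched RNA was sequenced from all 16.

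MSCs restrain immune cells by secreted enzymes and proteins and by ligands on their surface. Interferon-gamma, tumour necrosis factor and interleukin-1 from activated immune cells induce many of these factors, a process known as licensing, which acts in part through NF-kappaB. Among the members, IDO1 breaks down tryptophan to kynurenine, CD274 (PD-L1) and PDCD1LG2 (PD-L2) bind the inhibitory receptor PD-1 on T cells, and CD200 binds an inhibitory receptor on myeloid cells. TNFAIP6 (TSG-6) is a secreted hyaluronan-binding protein, STC1 is a secreted glycoprotein, LGALS1 and LGALS3 encode galectins that bind glycans on T cells, and ICAM1 and VCAM1 hold leukocytes at the cell surface through integrins.

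The table held raw read counts per gene, and total counts lay between 71275337 and 144204979 per library. Levels below are CPM values (counts relative to the size of the library) after TMM scaling, and differences are log2 fold changes from edgeR's quasi-likelihood test over all 16 libraries, with Benjamini-Hochberg adjustment over the 19103 genes that passed the filter on low counts. A difference is said to have passed at an adjusted p under 0.05. All 10 members passed the filter, CD200 only through the MmC+ libraries, where it had 22 to 60 counts against 0 to 6 in the MmC- libraries, so its difference between these groups follows in part from the filter. Markers of MSCs (NT5E, THY1, ENG, CD44, ITGB1 and PDGFRB) were present in every group, with a summed level of 5090 to 6700 CPM. After MmC without GDF11, 2 of these 6 rose and 1 (PDGFRB, log2 fold change -0.68) fell at that threshold of adjusted p. With GDF11, 3 rose and 1 fell after MmC. Replicate 1 stood apart from replicates 2 to 4: 3.89% of the genes tested lay at least 1.5-fold to the same side of the mean of the other replicates in all 4 groups for replicate 1, against 0.309% to 1.21% for the others. ICAM1 and STC1 are among these genes, and log2 fold changes after MmC without replicate 1 are given beside STC1, TNFAIP6, ICAM1 and CD200.

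The levels of the members per kilobase of exon covered a wide range in young cells. LGALS1 was first in every group, at 2700 ± 613 CPM per kb in MmC-/GDF11- (SD, n = 4), followed by LGALS3 at 166 ± 18.9, with no overlap between the 2 galectins or between LGALS3 and the next member. ICAM1 at 12.4 ± 6.38, TNFAIP6 at 9.79 ± 3.99 and PDCD1LG2 at 8.62 ± 1.28 followed and overlapped one another. STC1 at 2.57 ± 1.14 stood below them and overlapped VCAM1 at 0.921 ± 0.471. VCAM1 overlapped IDO1 at 0.779 ± 0.2, and CD274 came next without overlap at 0.402 ± 0.0946. Per kilobase of the longest transcript in place of all exons, 19 of the 40 group levels moved by more than their SD, among them LGALS1 to 4530 and IDO1 to 1.47 in MmC-/GDF11-, where IDO1 then stood above VCAM1 at 1.44. CD200 was last at 0.0128 ± 0.00965 CPM per kb. After MmC the order changed below LGALS1: TNFAIP6 at 113 ± 31, LGALS3 at 113 ± 12.7 and STC1 at 105 ± 52.5 CPM per kb had overlapping values in MmC+/GDF11-, followed by ICAM1 at 48.4 ± 24.8, which overlapped TNFAIP6 and STC1, and by PDCD1LG2 at 23.4 ± 1.75, below all of these.

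**Figure D1:**
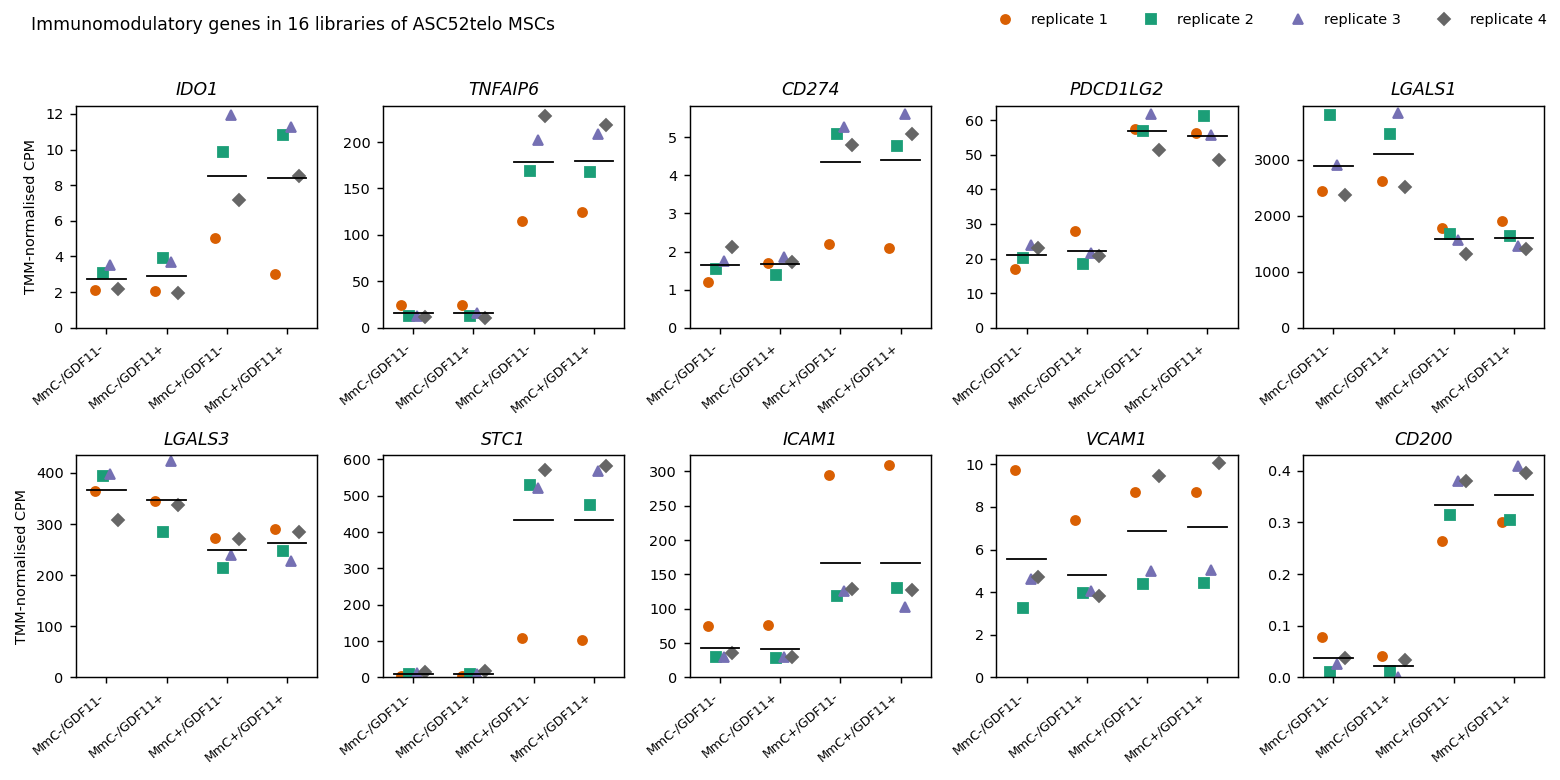
Level of each of the 10 members in every library, in CPM after TMM scaling, by group, with 1 panel per gene and linear axes that start at 0 and differ between panels, 1 marker shape per replicate number and a line at the group mean. TNFAIP6 and STC1 have MmC+ libraries far above all MmC- libraries, LGALS1 lies lower after MmC, and groups with and without GDF11 overlap for every member.

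Promoter sequence was available for 6 of the 10 members in the RefSeq table on GRCh38.p14, and the 4 members with bases before the first annotated exon to print are shown because licensing acts through NF-kappaB and interferon-response elements. Each runs 5′ to 3′ on the plus strand up to the base before the start of the gene in GENCODE, and capitals mark matches to searched motifs.
TNFAIP6 (chr2:151357342-151357591): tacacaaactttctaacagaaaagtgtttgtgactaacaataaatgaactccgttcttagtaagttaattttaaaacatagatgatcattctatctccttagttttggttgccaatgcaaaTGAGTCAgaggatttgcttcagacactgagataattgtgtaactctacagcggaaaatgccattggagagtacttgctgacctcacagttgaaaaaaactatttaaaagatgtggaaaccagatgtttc
CD274 (chr9:5450292-5450502): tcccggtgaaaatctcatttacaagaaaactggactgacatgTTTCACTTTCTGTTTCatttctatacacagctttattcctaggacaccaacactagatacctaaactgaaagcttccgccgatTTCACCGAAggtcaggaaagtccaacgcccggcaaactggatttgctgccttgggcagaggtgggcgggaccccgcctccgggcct
ICAM1 (chr19:10270870-10271092): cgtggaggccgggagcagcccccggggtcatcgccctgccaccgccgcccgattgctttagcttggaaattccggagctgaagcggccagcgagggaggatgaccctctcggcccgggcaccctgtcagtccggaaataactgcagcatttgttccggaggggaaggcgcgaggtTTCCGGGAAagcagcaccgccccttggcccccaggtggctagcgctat
VCAM1 (chr1:100719492-100719741): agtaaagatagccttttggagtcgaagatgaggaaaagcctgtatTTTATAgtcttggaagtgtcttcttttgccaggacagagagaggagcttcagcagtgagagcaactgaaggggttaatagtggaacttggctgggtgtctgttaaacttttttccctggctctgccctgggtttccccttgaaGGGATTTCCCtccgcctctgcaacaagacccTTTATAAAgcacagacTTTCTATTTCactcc
The motifs searched on both strands in the 250 bases before the RefSeq start were the NF-kappaB consensus, a TATA box (TATAAA), AP-1 (TGANTCA), the gamma-activated sequence GAS (TTCNNNGAA) and the interferon-stimulated response element (ISRE), which occurred in 5.21%, 10.7%, 6.57%, 6.57% and 3.02% of the 35116 promoters in the table. TNFAIP6 held an AP-1 match starting 129 bases before its start. CD274 held a GAS match at 125 bases and 2 ISRE matches, at 208 and 202 bases, which overlap each other. ICAM1 held a GAS match at 75 bases and a TATA box at 30 bases that lies beyond the printed stretch. VCAM1 held the NF-kappaB consensus at 62 bases, an ISRE match at 15 bases and TATAAA matches at 205, 31 and 29 bases, of which the last 2 overlap. Those at 205 and 31 bases lie on the opposite strand and read TTTATA here, and only that at 29 bases reads TATAAA on the plus strand. LGALS3 had no match and CD200 held a TATA box at 147 bases. In both, the searched bases begin after the GENCODE start of the gene, at 55129002 for LGALS3 and 112332906 for CD200, so none are printed. The NF-kappaB pattern was GGGRNWYYCC, in which R is A or G, W is A or T, Y is C or T and N is any base. Only full matches to a pattern were listed, so a site that departs from it would be missed. The lack of an NF-kappaB match in ICAM1, TNFAIP6 or CD274 therefore does not show that the gene lacks such a site. A match describes letters only, and binding was not measured.

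Senescent cells were compared with young cells to see which members changed after MmC, in the absence and in the presence of GDF11. In its absence, 7 members rose (STC1, TNFAIP6, CD200, ICAM1, IDO1, PDCD1LG2 and CD274), LGALS1 and LGALS3 fell, and VCAM1 did not pass. CD200 is part of this and the following counts and medians, although it passed the filter through the MmC+ libraries alone. MmC changed a large part of the transcriptome, and 45.3% of all genes tested passed, 22.9% higher and 22.4% lower, so a member's passing is not unusual by itself. The median difference was 1.54 for the members and -0.01 for all genes (log2). With GDF11 the same 7 rose and the same 2 fell, so 9 of 10 passed in both comparisons (40.2% of all genes), against 46.7% of all genes (23.4% higher and 23.3% lower), with a median of 1.46 against -0.01. The values of MmC+ and MmC- libraries did not overlap in 9 of 10 members without GDF11 (37.3% of all genes) and in 7 of 10 with GDF11 (41.5%). At an unadjusted p under 0.05, 9 members passed in each comparison, where 52.7% of all genes did without and 53.9% with GDF11. When only changes beyond 2-fold were tested, TNFAIP6, PDCD1LG2, STC1 and CD200 passed, 4 of 10 in each comparison, where 6.77% of all genes passed without and 6.46% with GDF11. A filter of at least 10 counts in every library leaves CD200 out. Under it, 6 of 9 members rose and 2 fell in each comparison, where 46.5% of all genes passed without and 47.9% with GDF11. In bulk RNA, a change in the number of expressing cells and a change in RNA per cell cannot be told apart. Markers of other cell types also moved with MmC. The summed level of 8 leukocyte markers was 2.24 to 3.09 CPM in MmC-/GDF11- and 3.81 to 6.01 CPM in MmC+/GDF11-, where 2 of the 4 tested passed higher, 1 of them (ITGAM) having passed the filter through the MmC+ libraries alone, and CD3E had 0 counts in the young libraries. Summed endothelial markers were 47.5 to 75.8 and 58.8 to 111 CPM, most of it TEK, which did not pass, while PECAM1 rose by 1.27 and CDH5 fell by 1.51 on the log2 scale (adjusted p = 0.00966 and 4.48e-06, edgeR). KDR rose by 2.66 (adjusted p = 0.00106) but passed the filter through the MmC+ libraries alone. The summed epithelial markers were 102 to 164 and 44 to 73.5 CPM. Their part in the members' differences was not tested.

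**Figure D2:**
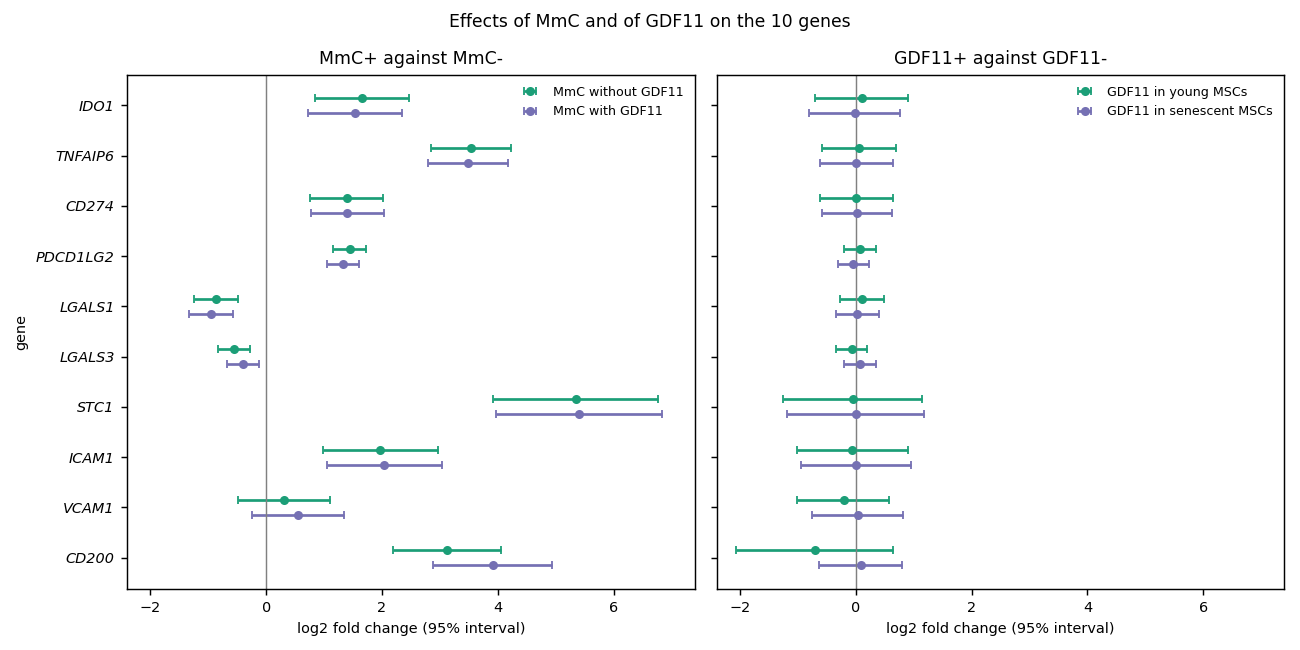
Log2 fold change of each member with its 95% confidence interval for MmC (left, without and with GDF11) and for GDF11 (right, in young and senescent cells), from edgeR's fit to all 16 libraries. For MmC, 7 members lie above 0, LGALS1 and LGALS3 lie below 0 and the interval of VCAM1 crosses 0, while every interval for GDF11 crosses 0.

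STC1 (ENSG00000159167.12), a secreted glycoprotein with anti-inflammatory and antioxidant actions, rose more than any other member. Its levels in MmC-/GDF11-, listed here and below by replicate number from 1 to 4, were 4.51, 10.7, 11.2 and 16.0 CPM, and those in MmC+/GDF11- were 109, 529, 523 and 571 CPM. With GDF11 the values were 4.68, 9.82, 9.50 and 16.9 CPM without MmC and 104, 475, 568 and 582 CPM with it. Every MmC+ library was above every MmC- library, and replicate 1 was the lowest in all 4 groups. The rise was 40.7-fold without GDF11 (log2 fold change 5.35, SE 0.669, adjusted p = 1.85e-05, edgeR) and 42.2-fold with it (5.40, SE 0.671, adjusted p = 1.7e-05). Between libraries of the same number the fold lay between 24.1 and 49.6 without GDF11 and between 22.2 and 59.8 with it. Without replicate 1 in every group the log2 fold change was 5.42 and 5.49.

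TNFAIP6 (ENSG00000123610.5, chromosome 2 from 151357592 to 151380046 of hg38, plus strand) encodes TSG-6, and it rose in both comparisons. Its protein modifies the hyaluronan matrix and limits neutrophil migration. Young cells without GDF11 had 24.8, 12.3, 13.2 and 11.5 CPM, and senescent cells without GDF11 had 115, 168, 202 and 228 CPM. With GDF11 the values were 24.4, 13.2, 16.0 and 10.5 CPM without MmC and 125, 168, 208 and 218 CPM with it. The groups did not overlap, and replicate 1 was the highest of the young libraries and the lowest of the senescent ones, so its own fold was the smallest. The difference was 11.6-fold without GDF11 (3.53, SE 0.327, adjusted p = 1.12e-06, edgeR) and 11.2-fold with it (3.49, SE 0.326, adjusted p = 1.34e-06). Without replicate 1 in every group it was 4.02 and 3.91 on the log2 scale.

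Both ligands of PD-1 rose. CD274 (ENSG00000120217.14, chromosome 9 from 5450503 to 5470566) and PDCD1LG2 (ENSG00000197646.8, chromosome 9 from 5510531 to 5571282) are neighbouring genes on the plus strand. CD274 stood at 1.20, 1.53, 1.76 and 2.12 CPM in MmC-/GDF11- and at 2.21, 5.08, 5.28 and 4.80 CPM in MmC+/GDF11-. In the presence of GDF11 it was 1.71, 1.38, 1.87 and 1.72 CPM without MmC and 2.11, 4.76, 5.60 and 5.09 CPM with it. The groups did not overlap in either comparison, but replicate 1 of each senescent group lay close to the highest young library of its comparison, at 2.21 against 2.12 CPM without GDF11 and 2.11 against 1.87 CPM with it. PDCD1LG2 stood at 16.9, 20.3, 23.8 and 22.9 CPM in MmC-/GDF11- and at 57.4, 56.9, 61.9 and 51.5 CPM in MmC+/GDF11-. With GDF11 it was 27.8, 18.3, 21.7 and 20.6 CPM without MmC and 56.1, 61.2, 55.7 and 48.4 CPM with it. Its replicates spread less than those of CD274, and replicate 1 did not stand apart after MmC. CD274 rose 2.62-fold without GDF11 (1.39, SE 0.297, adjusted p = 0.00133, edgeR) and 2.63-fold with it (1.40, SE 0.298, adjusted p = 0.00126). PDCD1LG2 rose 2.71-fold (1.44, SE 0.132, adjusted p = 6.2e-07) and 2.50-fold (1.32, SE 0.131, adjusted p = 1.45e-06). The ratio of PDCD1LG2 to CD274 had a mean of 12.9 ± 1.46 (SD, n = 4) in MmC-/GDF11- against 14.9 ± 7.41 in MmC+/GDF11-, and these ranges overlap, with replicate 1 the highest after MmC.

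IDO1 (ENSG00000131203.13) encodes the indoleamine dioxygenase, which degrades tryptophan and so restrains T cell proliferation. It stood at 2.11, 3.10, 3.51 and 2.16 CPM in MmC-/GDF11- and at 5.01, 9.85, 12.0 and 7.19 CPM in MmC+/GDF11-, without overlap. With GDF11 it was 2.08, 3.90, 3.69 and 1.98 CPM without MmC and 3.01, 10.8, 11.3 and 8.49 CPM with it, and replicate 1 of MmC+/GDF11+ lay inside the young range. The rise was 3.13-fold without GDF11 (1.65, SE 0.38, adjusted p = 0.00264, edgeR) and 2.89-fold with it (1.53, SE 0.379, adjusted p = 0.00409).

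The galectins were the members that fell. LGALS1 (ENSG00000100097.12, chromosome 22 from 37675636 to 37679802, plus strand), whose protein induces apoptosis of activated T cells, stood at 2445, 3798, 2913 and 2378 CPM in MmC-/GDF11- and at 1773, 1672, 1559.6 and 1314 CPM in MmC+/GDF11-. With GDF11 it was 2614, 3453, 3840.3 and 2513 CPM without MmC and 1912, 1644, 1454 and 1416 CPM with it. No senescent library reached the lowest young one. LGALS1 was 1.83-fold lower without GDF11 (-0.87, SE 0.177, adjusted p = 0.000926, edgeR) and 1.93-fold lower with it (-0.95, SE 0.177, adjusted p = 0.000445). LGALS3 (ENSG00000131981.16, chromosome 14 from 55124110 to 55145423, plus strand), a galectin that also regulates T cells, stood at 365, 393, 397 and 307 CPM in MmC-/GDF11- and at 273, 214, 239 and 271 CPM in MmC+/GDF11-. Its GDF11-treated libraries held 345, 284, 424 and 337 CPM without MmC and 290, 247, 229 and 284 CPM with it, where the groups overlapped. LGALS3 was 1.47-fold lower without GDF11 (-0.55, SE 0.13, adjusted p = 0.00268) and 1.32-fold lower with it (-0.41, SE 0.13, adjusted p = 0.0177). The latter call was lost without replicate 2 (adjusted p = 0.0559) or replicate 3 (0.0705) of MmC+/GDF11+ or replicate 3 of MmC-/GDF11+ (0.0837). The ratio of LGALS1 to LGALS3 had a mean of 7.86 ± 1.27 (SD, n = 4) in MmC-/GDF11- against 6.42 ± 1.21 in MmC+/GDF11-, and the ranges overlapped.

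The adhesion molecules ICAM1 and VCAM1 are both induced by inflammatory cytokines, and ICAM1 rose while VCAM1 did not pass the test. ICAM1 (ENSG00000090339.9, chromosome 19 from 10271093 to 10286615, plus strand) stood at 75.3, 29.2, 30.1 and 35.9 CPM in MmC-/GDF11- and at 295, 118, 126 and 128 CPM in MmC+/GDF11-. With GDF11 it was 76.4, 28.2, 29.4 and 29.3 CPM without MmC and 309, 130, 103 and 127 CPM with it. Replicate 1 was the highest in every group, and the fold between same-numbered libraries was 3.92, 4.06, 4.17 and 3.57 without GDF11 and 4.05, 4.61, 3.50 and 4.33 with it. The rise was 3.92-fold without GDF11 (1.97, SE 0.466, adjusted p = 0.00309, edgeR) and 4.10-fold with it (2.04, SE 0.467, adjusted p = 0.00242), and without replicate 1 in every group 1.97 and 2.05 (log2). VCAM1 (ENSG00000162692.12, chromosome 1 from 100719742 to 100739045, plus strand) stood at 9.72, 3.24, 4.61 and 4.70 CPM in MmC-/GDF11- and at 8.71, 4.40, 4.98 and 9.44 CPM in MmC+/GDF11-. With GDF11 it was 7.39, 3.96, 4.05 and 3.81 CPM without MmC and 8.68, 4.43, 5.05 and 10.1 CPM with it, with groups that overlapped in both. VCAM1 had a log2 fold change of 0.31 without GDF11 (95% confidence interval -0.48 to 1.10, adjusted p = 0.526) and 0.55 with it (-0.24 to 1.35, adjusted p = 0.238). Between same-numbered libraries its fold was 0.896, 1.36, 1.08 and 2.01 without GDF11 and 1.17, 1.12, 1.25 and 2.64 with it. A fit with a replicate term called VCAM1 with GDF11 (adjusted p = 0.0379, edgeR) but not without it. That fit called 59% of all genes with GDF11 and 57.9% without it. With replicate 1 left out of every group, its unadjusted p with GDF11 was under 0.05, as for 11211 of 19338 genes, but it did not pass. The ratio of ICAM1 to VCAM1 was 6.53 to 9.00 in MmC-/GDF11- and 13.6 to 33.9 in MmC+/GDF11-, and 7.13 to 10.3 and 12.6 to 35.6 with GDF11, so that no senescent library overlapped a young one. ICAM1 shares 23.6% of its exonic bases with the antisense gene ICAM4-AS1, and the strand setting of the counting is not given in the sources used here.

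CD200 (ENSG00000091972.18, chromosome 3 from 112332347 to 112362812, plus strand) was near the limit of detection. It had 0.078, 0.0104, 0.0262 and 0.0386 CPM in MmC-/GDF11- and 0.263, 0.315, 0.380 and 0.380 CPM in MmC+/GDF11-, and with GDF11 0.0417, 0.0134, 0 and 0.0335 CPM without MmC and 0.301, 0.305, 0.409 and 0.395 CPM with it. The count of 0 in replicate 3 of MmC-/GDF11+ allows a level of up to 0.0383 CPM. Summed over the 4 libraries, it had 13 counts in MmC-/GDF11- and 120 in MmC+/GDF11-, a ratio of 9.04 (exact 95% interval 5.09 to 17.5, counting error only), and 7 and 149 counts with GDF11, a ratio of 16.2 (7.69 to 41.1). The fitted log2 fold change was 3.12 (SE 0.443, adjusted p = 4.28e-05, edgeR) and 3.91 (SE 0.487, adjusted p = 1.23e-05). Without replicate 1 in every group it was 3.76 and 4.39. CD200 passed the filter through the MmC+ libraries alone, so these differences and their p-values follow in part from the filter. A long non-coding gene on the same strand shares 11.9% of the exonic bases of CD200.

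**Figure D3:**
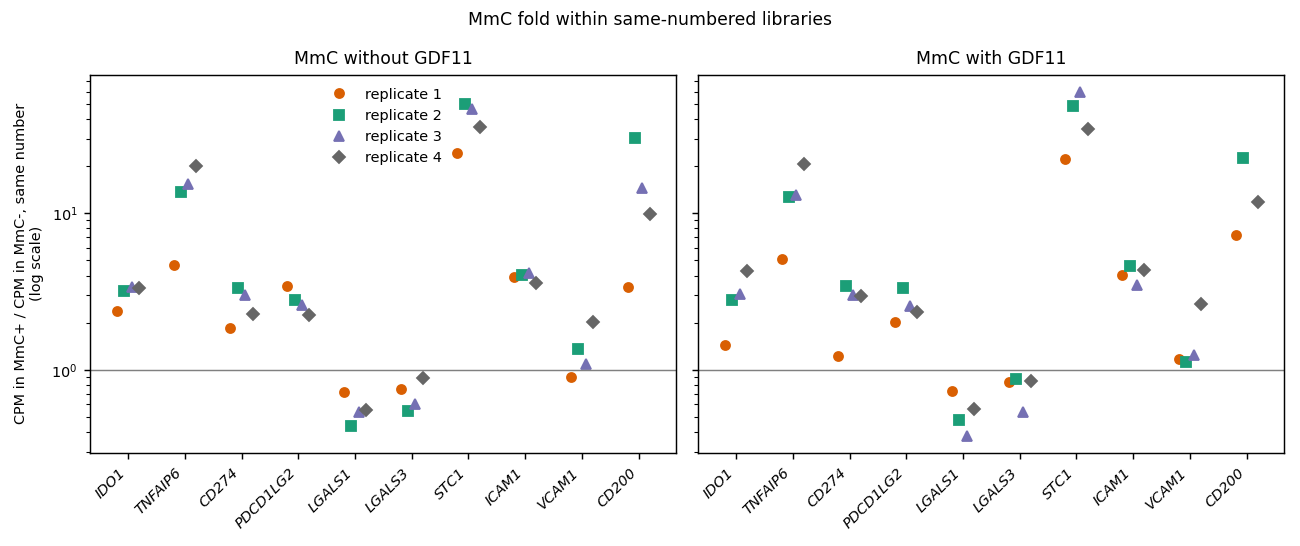
Fold change after MmC between libraries of the same replicate number, per member, without and with GDF11, on a log axis. CD200 has no value for replicate 3 with GDF11, where the MmC- library had 0 counts. ICAM1 varies between 3.5 and 4.61, while TNFAIP6 ranges from 4.64 to 20.7 and STC1 from 22.2 to 59.8.

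GDF11 was tested in young and in senescent cells to see whether it moved the members, and none of the 10 passed in either. In young cells, 0 members and 0 of all genes tested passed (0%), and 0 members reached an unadjusted p under 0.05 where 1.18% of all genes did. In senescent cells the counts were 0 members, 0% of genes by adjusted and 0.503% by unadjusted p. limma-voom and DESeq2 also called 0 members, with 0 and 1 of all genes called in young cells and 0 by both in senescent cells. The libraries with and without GDF11 overlapped for all 10 members in both cell states, where 0.89% of all genes did not overlap in young and 0.503% in senescent cells. Log2 fold changes in young cells lay between -0.71 for CD200 (95% confidence interval -2.06 to 0.65) and 0.11 for LGALS1 (-0.27 to 0.48), and in senescent cells between -0.04 for PDCD1LG2 (-0.31 to 0.23) and 0.09 for CD200 (-0.63 to 0.80). The intervals show how far the fit without a replicate term bounds each value: LGALS3 in senescent cells by -0.20 and 0.35, but STC1 only by -1.18 and 1.18 and ICAM1 by -0.95 and 0.96. These widths include differences that same-numbered libraries share. Between same-numbered senescent libraries the GDF11 fold lay between 0.899 and 1.09 for STC1 and between 0.82 and 1.1 for ICAM1. The difference between the GDF11 effects in senescent and young cells passed for 0 members and 0% of genes, and the unadjusted count was 0 of 10 against 0.9% of all genes. The largest such difference was 0.79 for CD200 (-0.74 to 2.32).

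**Figure D4:**
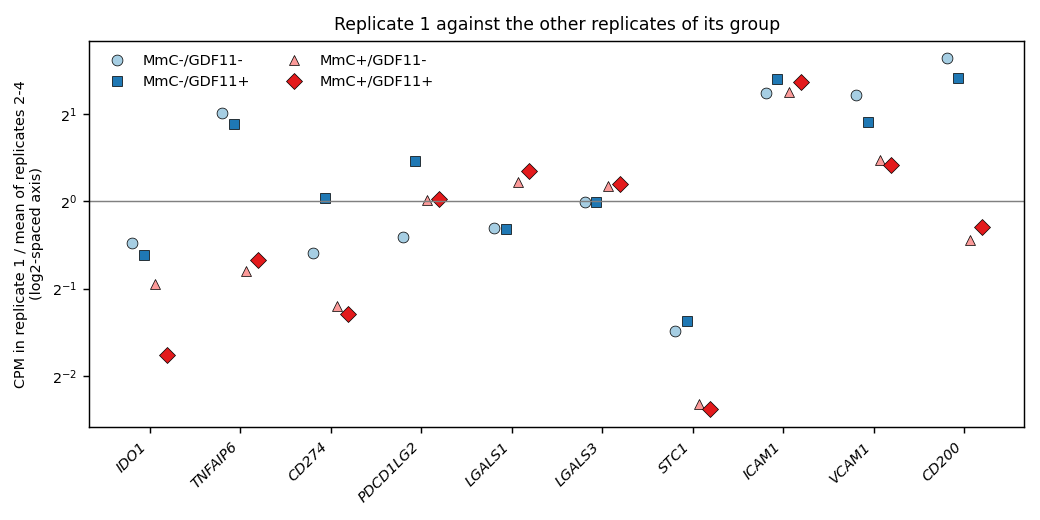
Replicate 1 divided by the mean of replicates 2 to 4 in each group, per member, on a log axis. ICAM1 lies above 2 in all 4 groups, between 2.37 and 2.64, and STC1 lies below 0.5 in all 4.

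Replicate 1 differed from the others in the same direction in all groups for ICAM1 and STC1, and in opposite directions in young and senescent cells for TNFAIP6, as the plot of replicate 1 against replicates 2 to 4 shows. ICAM1 in replicate 1 was 2.37 to 2.64 times the mean of the other replicates in all 4 groups, and STC1 was 0.192 to 0.388 times theirs. For all genes tested, replicate 1 was at least 1.5-fold higher in all 4 groups in 2.17% and lower in 1.72%. TNFAIP6 was 2.02 and 1.84 times the others in young cells and 0.577 and 0.629 times theirs in senescent cells. IDO1 was 0.295 to 0.72 times and VCAM1 1.33 to 2.32 times the others over the 4 groups, and CD200 was 3.11 and 2.67 times the others in young but 0.736 and 0.814 times theirs in senescent cells. The study lists batch effects among its limitations without tying them to libraries or replicate numbers. The cause of these differences was not tested.

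Genes of the pathways around the members were counted as well, with 22.9% of all genes tested higher and 22.4% lower after MmC without GDF11. Of 14 receptors and signalling genes of licensing, 3 rose and 1 fell. Among them, IFNGR1, a chain of the interferon-gamma receptor, rose by 0.48 (adjusted p = 0.00117, edgeR) and TNFRSF1A fell by 0.84 (adjusted p = 0.000465). JAK1 had -0.08 and IL1R1 0.24, neither passing. Of 11 tested genes of tryptophan metabolism, 3 rose and 2 fell. Among them, KYNU, kynureninase, rose by 3.10 (adjusted p = 4.73e-05) and AADAT fell by 0.78 (adjusted p = 3.84e-05). IDO2 rose by 1.25 (adjusted p = 0.0107) but passed the filter through the MmC+ libraries alone. Among 11 tested partners of TSG-6, HAS1 and HAS2, which synthesise hyaluronan, rose by 7.69 and 1.32 (adjusted p = 5.18e-05 and 0.00922), and ITIH3 fell by 1.64 (adjusted p = 0.0372), having passed the filter through the MmC- libraries alone. HAS1 spread widely, from 8.33 to 239 CPM in MmC+/GDF11- against 0.466 to 0.733 CPM in MmC-/GDF11-.

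Of 12 tested checkpoint and recognition ligands other than the members, 6 rose and 1 fell. TNFSF4 (OX40 ligand) was up by 1.96 (adjusted p = 4.62e-05, edgeR) and FAS by 0.99 (adjusted p = 4.35e-06), with CD47 at -0.22 without passing. CD80 is among the 6, up by 2.46 (adjusted p = 0.00498), but it passed the filter through the MmC+ libraries alone. Of 6 tested galectins and galectin ligands, 4 rose and 1 fell. LGALS9 rose by 0.96 (adjusted p = 0.0105) but had 0.62 with GDF11 (adjusted p = 0.077), and MGAT5 rose by 1.27 (adjusted p = 5.49e-07). LGALS12 fell by 3.68 (adjusted p = 0.000165), with 9 to 20 counts in MmC-/GDF11- and 0 to 2 in MmC+/GDF11-, and it passed the filter through the MmC- libraries alone. Of 12 tested leukocyte adhesion molecules, 7 rose and 0 fell, and 3 of the 12 passed the filter through the MmC+ libraries alone, with JAM2 up by 1.97 (adjusted p = 0.00368). Of 18 tested secreted or enzymatic immunomodulators, 12 rose and 0 fell: IL6 by 7.38, LIF by 6.39 and IL1RN by 5.74 (adjusted p = 1.96e-06, 9.61e-06 and 0.000256), with TGFB1 at -0.16 and not passing. Within MmC+/GDF11-, IL6 ran from 146 to 905 CPM, LIF from 57.8 to 580 CPM and IL1RN from 2.15 to 53.6 CPM. Of the 6 genes for receptors of the members on immune cells, 4 were tested, and 3 rose and 1 fell, but ITGAM and ITGAL passed the filter through the MmC+ libraries alone, so their rise follows in part from it. The fall was that of ITGA4, an integrin chain that binds VCAM1, which went from 106 ± 19.1 to 54.5 ± 18 CPM (SD, n = 4, adjusted p = 0.00293). ITGAM, an integrin chain that binds ICAM1, was 0.182 to 0.265 CPM in MmC+/GDF11- and did not exceed 0.0655 CPM in MmC-/GDF11-. PDCD1, which encodes PD-1, had 0 counts in all 16 libraries.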

How the data were processed

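Poly(A)-enriched RNA of ASC52telo cells was sequenced in 16 libraries, 4 biological replicates per group, with groups and replicate numbers taken from the sample labels. The authors aligned reads to hg38 with HISAT2 2.2.1, counted them on GENCODE genes with featureCounts 2.0.1 and deposited raw counts per gene, without normalization. The kit was directional, but the strand setting, the counting of pairs and the handling of multiply aligned reads are not given in the sources used here. Total counts were 71275337 to 144204979 per library.

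Symbols, positions and lengths came from GENCODE v44, a later release than the authors', and 142 of 60649 identifiers had no match there. The analysis used R 4.3.3 and edgeR 4.0.16 (filterByExpr by group with minimum count 10 and minimum total 15, TMM, robust quasi-likelihood fit to all 16 libraries, 1 mean per group, no replicate term), with Benjamini-Hochberg adjustment over 19103 genes at 0.05. The study names no differential expression test. Confidence intervals are 95% intervals from the fit. CPM was scaled by TMM, and levels per length used the union of exons. The 3-count floor and the exact interval of CD200 cover counting error only. Of a member's exonic words of 31 bases, at most 9.35% (LGALS3) recurred elsewhere on the primary assembly and at most 8.79% (IDO1) on alternate contigs. Steps were tested on simulated data.

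The members and the other gene lists were chosen with earlier results of these data known. Named genes were all 10 members and, of each other list, up to 3 passing genes with the largest change and up to 2 of the highest level that did not pass. ITGA4, PDCD1 and CD3E were named after their values were seen. Some genes that this rule names are not reported here.

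The replicate number was checked as a pairing by correlating the deviations of same-numbered libraries from their group means across genes (log2 CPM, prior count 2). In MmC without GDF11 every pair was at 0.113 or more and in GDF11 in senescent cells at 0.448 or more, so the numbers were taken to pair these. The replicate 3 pair lay at 0.0293 in MmC with GDF11 and at 0.0982 in GDF11 in young cells, which were not taken as paired. Replicates 1, 2 and 4 lay at 0.311, 0.16 and 0.266 in the former and at 0.504, 0.264 and 0.502 in the latter. The choice therefore rests on the replicate 3 pair alone, and 0.0982 lies close to the 0.113 that was accepted. The main test paired no comparison. Alternatives were other scaling (RLE, upper quartile), other filters (none, or a minimum of 10 counts throughout), a fit to the groups compared alone, the replicate block, limma-voom (limma 3.58.1), DESeq2 1.42.0, glmTreat with a log2 limit of 1, each library left out, and replicate number 1 left out of every group.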

Additional observations from a re-analysis of the deposited data

Results flagged for a closer look

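In groups of 4 libraries, the highest or lowest library was compared with the others by the ratio of its gap to the group's range, against Dixon's 95% critical value. Of 40 member and group combinations, 8 met this, all of them in replicate 1, where chance alone gives about 1 in 20. Over all genes tested, 8.16% of gene and group combinations were set apart in the same way, 60.8% of them by replicate 1. For ICAM1 replicate 1 was the highest in every group: 75.3 CPM against 29.2 to 35.9 in MmC-/GDF11-, 76.4 against 28.2 to 29.4 in MmC-/GDF11+, 295 against 118 to 128 in MmC+/GDF11-, and 309 against 103 to 130 in MmC+/GDF11+. TNFAIP6 was 24.8 CPM in MmC-/GDF11- against 11.5 to 13.2, and VCAM1 was 7.39 in MmC-/GDF11+ against 3.81 to 4.05. In MmC+/GDF11-, replicate 1 was the lowest for STC1, at 109 CPM against 523 to 571, and for CD274, at 2.21 against 4.80 to 5.28. The cause was not tested.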

How the results depend on the processing

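The 7 rises and 2 falls after MmC held under RLE and upper-quartile scaling, no filter, only the groups compared, limma-voom, DESeq2 and without replicate number 1 in every group. With at least 10 counts in every library CD200 was not tested. Tested against a log2 fold change of 1, 4 members passed in each comparison, and IDO1, CD274, LGALS1, LGALS3 and ICAM1 did not. The replicate block gave 7 higher and 2 lower without GDF11, changed no member's call where the numbers pair the libraries, and with GDF11 called 8 higher and 2 lower, VCAM1 included (adjusted p = 0.0379), where they were not taken to pair them. Leaving out 1 library kept every MmC call but that of LGALS3 with GDF11, where the log2 fold change ranged from -0.48 to -0.29.

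No GDF11 or interaction value passed under any alternative, and the sign of several was not stable. Without replicate number 1, GDF11 in young cells was -0.13 for CD274 and -0.15 for PDCD1LG2, GDF11 in senescent cells 0.08 for IDO1, -0.01 for TNFAIP6 and -0.01 for LGALS1, and the interaction 0.10 for PDCD1LG2. limma-voom gave -0.01 for VCAM1 in senescent cells, and the replicate block -0.05 for the interaction of CD274. With 1 library left out, GDF11 in young cells ranged in IDO1 -0.07 to 0.25, TNFAIP6 -0.22 to 0.38, CD274 -0.11 to 0.16, PDCD1LG2 -0.05 to 0.16, LGALS1 -0.01 to 0.27, LGALS3 -0.18 to 0.01, STC1 -0.41 to 0.22, ICAM1 -0.56 to 0.37 and VCAM1 -0.50 to 0.20. With 1 library left out, GDF11 in senescent cells ranged in IDO1 -0.20 to 0.27, TNFAIP6 -0.15 to 0.15, CD274 -0.20 to 0.25, PDCD1LG2 -0.09 to 0.02, LGALS1 -0.07 to 0.09, STC1 -0.32 to 0.33, ICAM1 -0.47 to 0.43, VCAM1 -0.19 to 0.23 and CD200 -0.01 to 0.15. With 1 library left out, the interaction ranged in IDO1 -0.30 to 0.16, TNFAIP6 -0.37 to 0.24, CD274 -0.22 to 0.23, PDCD1LG2 -0.20 to 0.02, LGALS1 -0.24 to 0.04, STC1 -0.27 to 0.41, ICAM1 -0.41 to 0.57 and VCAM1 -0.16 to 0.54. The cause was not tested. Low counts limit CD200, and the spread between replicates limits ICAM1 and STC1 under GDF11 in the fit without a replicate term.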
